A study of Mus musculus with 2 samples.

Results

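Integrins and their adhesion partners were examined in mouse bone marrow-derived macrophages that had been exposed to an agonistic antibody against CD40 or to IgG. The set comprised every symbol of the deposited expression table that begins with Itga or Itgb followed by a number and at most 1 letter, together with Itgad, Itgae, Itgal, Itgam, Itgav, Itgax, Icam1, Icam2, Tln1, Fermt3 and Vcl. This gave 32 of the 34714 genes of the table. Of the 32 genes, 18 encode integrin alpha subunits, 9 encode beta subunits, and the other 5 encode ligands or cytoplasmic partners. The rule uses gene symbols only.

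The macrophages were grown from C57BL/6 marrow with macrophage colony-stimulating factor at 20 ng/mL, which both groups shared. The treated group received anti-CD40 mAb (FGK45) for 24 h, and the control group received IgG, labelled for the same 24 h. Each group held 1 RNA-seq library. No difference therefore has a replicate check, no test between the groups was possible, and no p-value is given. The age and number of the mice, and whether marrow was pooled, are not stated in those labels. Values are FPKM, that is, fragments scaled by transcript length and library size, so levels can be set side by side between genes.

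Integrins are surface receptors made of 1 alpha and 1 beta chain, which hold cells to matrix proteins and to counter-receptors on other cells. Beta 2 integrins are found on leukocytes: the beta 2 chain (Itgb2, CD18) pairs with alpha L (Itgal, forming LFA-1), alpha M (Itgam, forming Mac-1), alpha X (Itgax, CD11c) or alpha D (Itgad). Talin (Tln1) and kindlin-3 (Fermt3) bind the cytoplasmic tail of the beta chain and switch integrins to the ligand-binding state, and vinculin (Vcl) ties talin to actin. ICAM-1 and ICAM-2 (Icam1, Icam2) are ligands of beta 2 integrins. In macrophages these receptors serve adhesion, migration and the uptake of complement-coated particles.

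The depth that underlies these values was estimated from steps in the FPKM of single-exon genes and came to 6.16 gigabases of aligned sequence under anti-CD40 and 5.58 under IgG. Detected members rested on 75 to 9255 approximate fragments per library. Intervals on ratios below are 95% exact conditional binomial intervals on such fragment numbers. They cover counting error only, not the variation from culture to culture. Among macrophage markers, 13 of 14 reached 1 FPKM in at least 1 library, among them Csf1r, the receptor of the growth factor, at 333 FPKM in each library. Not all were as even as Csf1r. Between the libraries, 2 of the 13 lay at least 25% above the median of all genes and 1 at least 20% below. Of all genes, 7.49% and 13.9% did. Of 12 neutrophil markers, 1 reached 1 FPKM (S100a8, 1.82 under anti-CD40 and 1.11 under IgG), of 12 T or NK cell markers 1 (Cd4, 3.94 and 3.04), of 8 endothelial markers 1 (Vwf, 12.1 and 14.7), and of 9 fibroblast or stromal markers 0. Of 8 dendritic cell markers, Itgae included, 0 reached 1 FPKM. For B or plasma cells 1 of 8 reached it and for erythroid cells 1 of 7. For mast cells or basophils it was 0 of 9, and for eosinophils 0 of 6. The part of these cells in the results was not tested.

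Promoter sequences are shown for 4 members on which the results turn. Itgam and Itgax are neighbours on chromosome 7 whose ratios lay on different sides of the median of all genes. The counting interval of the Itgam ratio held that median. Vcl had the highest ratio, and Icam1 is a textbook target of NF-kB, the transcription factor downstream of CD40. Each sequence lies before the annotated start, 5′ to 3′ on the plus strand, and comes from RefSeq on GRCm38.p6. Capitals mark matches on either strand to GAGGAA (the core bound by PU.1, a myeloid transcription factor), TGANTCA (AP-1), GGAANTTCC (a symmetric NF-kB form) or the CArG box (serum response factor). In any of these sequences the matches do not overlap each other, apart from matches that read alike on both strands.
Itgam (chr7:128062390-128062639): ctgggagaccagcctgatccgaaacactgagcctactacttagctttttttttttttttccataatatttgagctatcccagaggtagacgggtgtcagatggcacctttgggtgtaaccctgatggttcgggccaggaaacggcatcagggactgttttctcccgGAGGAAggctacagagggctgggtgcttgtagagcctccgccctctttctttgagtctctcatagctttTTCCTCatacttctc
Itgax (chr7:128129300-128129525): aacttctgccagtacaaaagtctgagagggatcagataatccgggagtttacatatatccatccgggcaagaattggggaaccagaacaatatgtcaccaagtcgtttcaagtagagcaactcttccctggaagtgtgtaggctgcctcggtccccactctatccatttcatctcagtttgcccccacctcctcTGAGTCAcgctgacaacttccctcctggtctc
Icam1 (chr9:21015690-21015939): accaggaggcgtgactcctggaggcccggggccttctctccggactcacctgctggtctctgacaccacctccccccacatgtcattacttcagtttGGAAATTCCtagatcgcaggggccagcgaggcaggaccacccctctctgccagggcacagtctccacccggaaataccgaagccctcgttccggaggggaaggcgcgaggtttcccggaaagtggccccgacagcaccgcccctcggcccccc
Vcl (chr14:20929148-20929382): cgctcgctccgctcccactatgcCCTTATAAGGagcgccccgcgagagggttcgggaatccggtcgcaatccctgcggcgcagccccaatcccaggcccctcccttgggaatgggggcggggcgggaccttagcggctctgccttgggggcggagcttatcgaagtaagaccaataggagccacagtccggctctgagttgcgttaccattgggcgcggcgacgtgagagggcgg
The Itgam window held the PU.1 core at 2 places, 84 and 15 bases before the start at their outer ends, and the Itgax window held an AP-1 match whose outer end lay 56 bases before the start. Positions are counted from the start in the RefSeq promoter table, which for Itgax is 128129550 and for Vcl 20929398, both inside the annotated genes. Their printed windows stop where the gene begins. The Icam1 window held the symmetric NF-kB form and the Vcl window a CArG box. Only the 19 members with at least 200 bases outside the annotated gene were searched. Windows not printed here of Itga2b, Itga5, Itgb1, Tln1 and the undetected Itga11 also held the PU.1 core. The windows behind the shares below were not cut at the gene. Of 32851 promoter windows of 250 bases in the RefSeq table, 23.3% held the PU.1 core, 6.75% the AP-1 motif, 0.813% the symmetric NF-kB form and 1.47% a CArG box. The motifs were chosen after the expression values were seen, and a match describes the letters only.

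Of the 32 members, 18 reached 1 FPKM in at least 1 library, 13 of them integrin subunits (8 alpha and 5 beta). The other 14 stayed at or below 0.189 FPKM in both libraries, so no member lay near the limit of 1 FPKM: Vcl was the lowest above it, at 2.09 FPKM under anti-CD40 and 1.33 under IgG, and Itga10 the highest below it, at 0.189 and 0.157 FPKM. Among those 14 were Itga1, Itga2 and Itga11, which encode the alpha chains of collagen receptors, Itga3 and Itga7 of laminin receptors, and Itgb6 and Itgb8, epithelial and neural partners of alpha v. Itgae, the alpha E chain of mucosal lymphocytes and some dendritic cells, was at 0.0704 FPKM under anti-CD40 and 0.0788 under IgG. Itgad, next to Itgax in the genome, was at 0.148 and 0.135 FPKM. Itgb2l, Itgb6 and Itgb8 were listed at 0 in both libraries, which can also be a failed estimate.

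**Figure D1:**
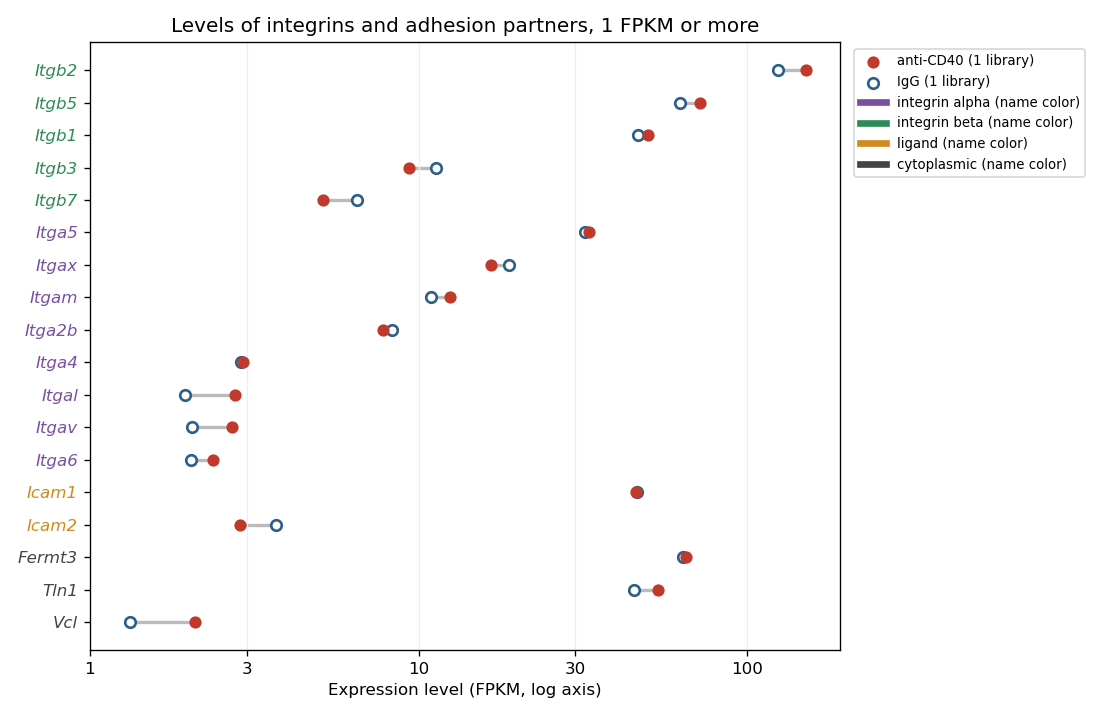
Expression level (FPKM, log axis) of the 18 members that reached 1 FPKM, with 1 filled point for the anti-CD40 library and 1 open point for the IgG library. Itgb2 is the highest in both libraries and Vcl the lowest, and no pair of points is far apart on the scale of the differences between genes.

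Across the 9591 genes that reached 1 FPKM, the log2 ratio between anti-CD40 and IgG, taken after adding 1 to each FPKM, had a median of 0.12, so members are described relative to that median. The median FPKM ratio over the 9101 genes for which both libraries reached 1 FPKM was 1.11. Relative to the median, 8 of the 18 detected members lay above it and 10 below, and their median was -0.05 on the log2 scale. Values ran from -0.41 (Itgb7) to 0.29 (Vcl). Of all genes, 19.1% lay outside that range. The interquartile range was 0.30 for the members and 0.33 for all genes, so the members spread about as widely as the table as a whole.

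No member lay at least 25% above the median, against 7.49% of all genes, and 3 of 18 members (16.7%) lay at least 20% below it, against 13.9% of all genes. Both shares are near the background and are no result about integrins. The 3 lower members were Itgb7, Icam2 and Itgb3, with log2 values of -0.41, -0.40 and -0.38 relative to the median, and Itgax followed just outside the limit at -0.30. No member was 1.5-fold or more from the median in either direction, against 5.46% of all genes, or 2-fold or more, against 0.699%. Counted from equal levels, without centring on the median, the count at 20% below falls to 0, against 8.26% of all genes. With a pseudocount of 0.1 FPKM it rises to 4, against 17.3%.

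Counting error was smaller than many of these differences. The interval of the FPKM ratio lay wholly above the all-gene median ratio for 5 of 18 members, against 21.3% of all genes, and wholly below it for 8, against 26.0% of all genes. The members also rested on more fragments than most genes, with a median of 984 fragments against 360 for all genes tested in the IgG library, which narrows their intervals. The part of depth in these counts was not tested.

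**Figure D2:**
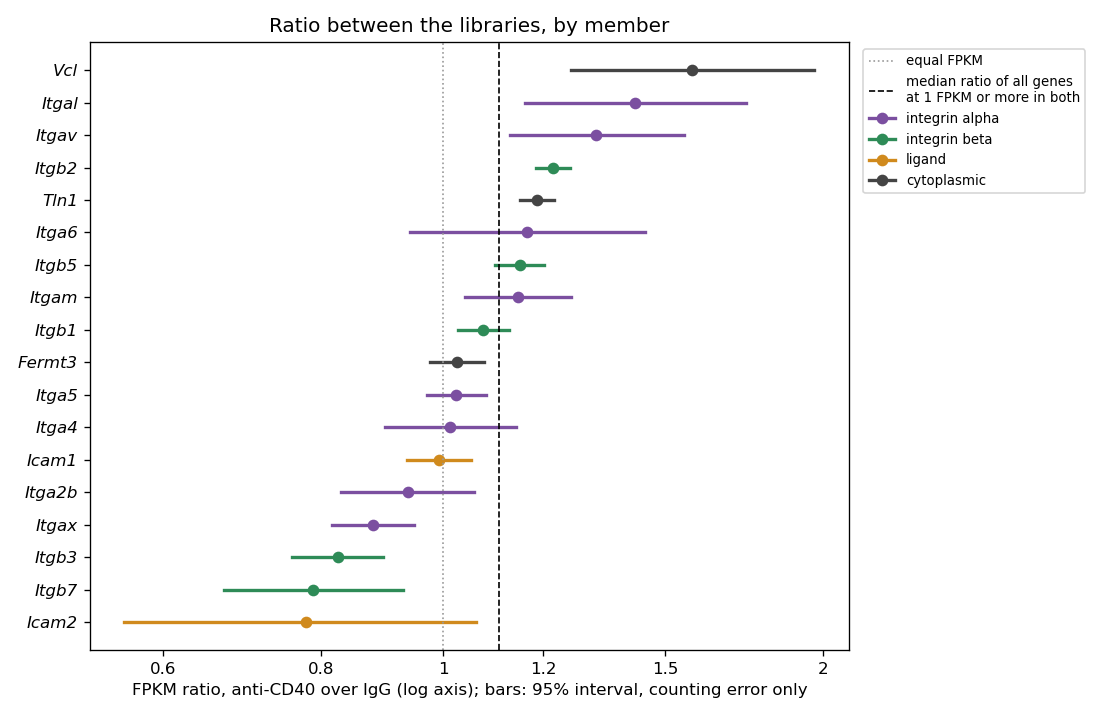
Ratio of the anti-CD40 to the IgG value in FPKM (log axis) for the 18 members, with 95% intervals that cover counting error only. The dashed line is the all-gene median ratio of 1.11 and the dotted line marks equal FPKM. Intervals of Vcl, Itgal, Itgav, Itgb2 and Tln1 lie above the dashed line, and those of Icam2, Itgb7, Itgb3, Itgax, Itga2b, Icam1, Itga5 and Fermt3 lie below it.

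The beta 2 integrins were led by their shared beta chain. Itgb2 (chromosome 10, 77530329 to 77565708, build GRCm38) reached 151 FPKM under anti-CD40 and 124 under IgG. The ratio was 1.22 (interval 1.18 to 1.26), and the gene lay 0.16 above the median of all genes on the log2 scale. It was the most abundant member in both libraries. The alpha chains that pair with it did not go the same way. Itgal, the alpha chain of LFA-1 (chromosome 7, 127296139 to 127335137), had 2.76 FPKM under anti-CD40 and 1.94 under IgG, a ratio of 1.42 with an interval from 1.16 to 1.74. Itgam, the alpha chain of Mac-1, a receptor of complement fragments (chromosome 7, 128062640 to 128118491), had 12.5 and 10.9 FPKM. Its ratio of 1.15, with an interval from 1.04 to 1.26, held the all-gene median. Itgax, often used to mark dendritic cells and tissue macrophages (chromosome 7, 128129526 to 128150657), had 16.6 FPKM under anti-CD40 and 18.9 under IgG. Its ratio was 0.881, with an interval from 0.817 to 0.949.

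Itgax therefore lay lower under anti-CD40 while Itgam, its neighbour 11 kb away, lay higher, and the intervals of their ratios do not overlap. Itgax was 1.33 times as abundant as Itgam under anti-CD40 and 1.73 times under IgG. Of the summed FPKM of the 4 alpha partners of beta 2, Itgax held 51.9% under anti-CD40 and 59.3% under IgG, Itgam 39.0% and 34.2%, and Itgal 8.62% and 6.11%. The sum itself was 31.99 FPKM under anti-CD40 and 31.8 under IgG. Transcripts of Itgb2 thus stood at 4.73 times those of all its alpha partners under anti-CD40 and at 3.89 times under IgG. Itgam, Itgax and Itgad are related genes, and how reads shared between them were assigned is not given in the labels.

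Beta 1 integrins bind fibronectin, laminin, collagen and VCAM-1, depending on the alpha chain. Itgb1 itself (chromosome 8, 128685654 to 128733579) had 49.95 FPKM under anti-CD40 and 46.4 under IgG. Its ratio of 1.08, with an interval from 1.03 to 1.13, held the all-gene median. Itga5, which forms the main fibronectin receptor with beta 1 (chromosome 15, 103344286 to 103366791), was the most abundant alpha chain, at 33.0 and 32.2 FPKM. Itga4, whose product joins beta 1 or beta 7 to bind VCAM-1, had 2.93 and 2.89 FPKM, and Itga6, of a laminin receptor, had 2.37 and 2.03. The log2 values of these 4 genes lay between -0.11 (Itga4) and 0.03 (Itga6) relative to the median. On which side of 0 each lies changes under at least 1 alternative setting. For Itga4 these were only settings without centring, where 0 means equal levels.

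**Figure D3:**
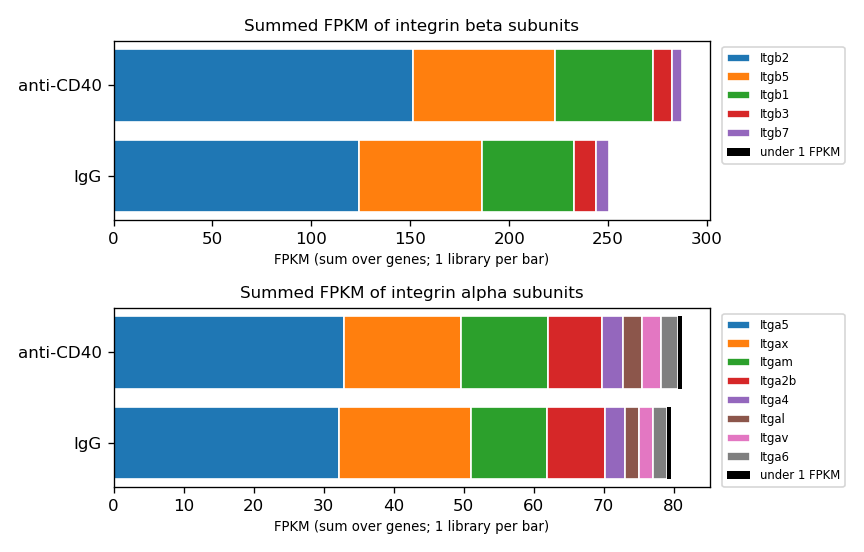
Summed FPKM of the integrin beta chains (top) and alpha chains (bottom), with 1 bar per library and a segment for each gene at 1 FPKM or more. Itgb2 fills 52.6% of the beta bar under anti-CD40 and 49.5% under IgG, and Itga5 fills 40.6% and 40.4% of the alpha bar.

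Beta chains outweighed alpha chains at the transcript level. The 9 beta genes summed to 287 FPKM under anti-CD40 and 250.4 under IgG, and the 18 alpha genes to 81.2 and 79.6, so that beta transcripts were 3.54 and 3.14 times as abundant. The ratio between libraries was 1.15 for the beta sum and 1.02 for the alpha sum, on either side of the all-gene median ratio of 1.11. Among beta chains, Itgb2, Itgb5 and Itgb1 held nearly the whole sum. Protein amounts were not measured.

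Alpha v integrins bind vitronectin, fibronectin and other ligands with an RGD motif. Itgav (chromosome 2, 83722303 to 83806917) had 2.71 FPKM under anti-CD40 and 2.05 under IgG, a ratio of 1.32 with an interval from 1.13 to 1.55. Itgb5, which pairs with alpha v (chromosome 16, 33829665 to 33949338), had 71.6 and 62.3 FPKM and a ratio of 1.15, from 1.10 to 1.20, which held the all-gene median. Transcripts of Itgb5 were thus 26.4 times as abundant as those of its alpha chain under anti-CD40 and 30.4 times under IgG. Itgb3, the beta chain that joins alpha v in osteoclasts and alpha IIb in platelets (chromosome 11, 104608000 to 104670476), went the other way. It had 9.35 FPKM under anti-CD40 and 11.3 under IgG, a ratio of 0.825 with an interval from 0.760 to 0.896.

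Itgb3 is also a marker of osteoclasts, cells that grow from the same precursors. Of 9 osteoclast markers in all, Itgb3 included, 6 reached 1 FPKM, and 4 of these, Itgb3 among them, lay at least 20% below the all-gene median, against 13.9% of all genes: Itgb3, Acp5 (7.07 and 8.77 FPKM), Atp6v0d2 (47.0 and 55.7) and Dcstamp (2.02 and 3.33). The other two did not: the protease gene Ctsk stood at 46.0 and 38.1 FPKM and the transcription factor gene Nfatc1 at 8.88 and 8.30. Without Itgb3 the markers summed to 111 FPKM under anti-CD40 and 114 under IgG. In bulk RNA, fewer cells of a type and less RNA per cell cannot be told apart, and the part of osteoclast-like cells in the Itgb3 value was not tested.

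Itga2b encodes alpha IIb, the fibrinogen receptor chain of megakaryocytes and platelets (chromosome 11, 102453297 to 102469883). It had 7.77 FPKM under anti-CD40 and 8.29 under IgG, a ratio of 0.938 with an interval from 0.831 to 1.06. Its usual partner is Itgb3. Of 10 megakaryocyte and platelet markers, Itga2b included, 6 reached 1 FPKM. The others among these did not go 1 way: Pf4 stood at 16.4 and 10.5 FPKM and Treml1 at 6.53 and 5.74, while Gp1bb, a defining chain of the platelet von Willebrand receptor, stood at 1.28 and 2.14. Without Itga2b the markers summed to 29.2 FPKM under anti-CD40 and 22.6 under IgG, and their part in the Itga2b value was not tested.

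Itgb7, whose product pairs with alpha 4 or alpha E in lymphocytes that home to the gut, had the lowest ratio relative to the median on the log2 scale. It stood at 5.12 FPKM under anti-CD40 and 6.49 under IgG (chromosome 15, 102215994 to 102233405). Its ratio was 0.789, with an interval from 0.671 to 0.930. Its alpha partners Itga4 and Itgae together had 3.0 and 2.97 FPKM, against which Itgb7 stood at 1.71 and 2.18 times. Itga4 also pairs with beta 1.

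The ligand genes differed from each other in level. Icam1, whose product binds LFA-1 and Mac-1 (chromosome 9, 21015940 to 21028814), had 45.8 FPKM under anti-CD40 and 46.2 under IgG. Its ratio was 0.993, with an interval from 0.936 to 1.05, so that it includes equal levels and lies below the all-gene median ratio. On the log2 scale it lay at -0.13 relative to the median. With scaling to the mean of the sums and no centring it was 0.04, where the median of all genes was 0.16. Icam2, which binds LFA-1 and is known from endothelium and leukocytes (chromosome 11, 106377656 to 106388139), was far lower, at 2.87 and 3.68 FPKM. Its ratio of 0.778 rests on 75 and 88 approximate fragments, and the interval from 0.559 to 1.06 includes equal levels.

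The cytoplasmic partners were abundant except vinculin. Fermt3, the kindlin of blood cells (chromosome 19, 6998958 to 7019469), had 65.2 FPKM under anti-CD40 and 63.6 under IgG, a ratio of 1.03 from 0.977 to 1.08. Its log2 value of -0.09 relative to the median was 0.01 with the trends on transcript length and GC content removed. Without centring it was 0.04. Tln1, the talin of most tissues (chromosome 4, 43531513 to 43562583), had 53.7 and 45.3 FPKM and a ratio of 1.19, from 1.15 to 1.22. Vcl (chromosome 14, 20929383 to 21033676) had 2.09 and 1.33 FPKM. Its ratio of 1.57, with an interval from 1.26 to 1.97, was the highest of the 18 members, at approximate fragment numbers of 226 and 130. Talin transcripts were 25.7 times as abundant as vinculin transcripts under anti-CD40 and 34.1 times under IgG. On the log2 scale, Vcl lay 0.29 above the median and Tln1 0.12 above it, both within the 25% limit. The FPKM ratio of Vcl was 1.42 times the all-gene median ratio. With a pseudocount of 0.1 FPKM in place of 1, the log2 value of Vcl was 0.47 and that of Itgal 0.34. Both passed the limit at that setting, as did 10.99% of all genes.

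Some members overlap genes on the opposite strand, and the strand setting is not given in the labels. Tln1 overlaps Creb3, at 33.7 FPKM under anti-CD40 and 29.3 under IgG, and Vcl overlaps Ap3m1, at 4.89 and 4.42 FPKM. Fermt3 overlaps Trpt1, at 1.80 and 1.56 FPKM, and Itga4 overlaps Cerkl, at 0.140 and 0.0887. On the same strand, Itgam overlaps Gm49368, a protein-coding gene for which no value is listed. Itga2b, Itga5 and Itga6 overlap noncoding genes on the same strand, also without values. The part of these partners in the members' values was not tested.

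Other genes of the integrin pathway were taken from 7 lists with 168 entries, of which 96 reached 1 FPKM. Of these, 7 lay at least 25% above the all-gene median (7.29%) and 12 at least 20% below it (12.5%), near the 7.49% and 13.9% of all genes. Among adaptors that link beta tails to actin or to signalling, 2 of 19 lay above and 1 below, with a list median of -0.02. Vasp, which promotes actin filament growth, had 38.0 FPKM under anti-CD40 and 26.5 under IgG, and Rsu1, a partner of the ILK complex, had 22.4 and 16.1. Dab2, an endocytic adaptor, was lower, at 22.7 and 26.8 FPKM, and the actin crosslinker Actn4 had 49.8 and 53.2.

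Rap1, a small GTPase, recruits talin to integrins. Of 17 detected genes for Rap1 and its regulators, 1 lay at least 25% above the median and 2 at least 20% below, with a list median of 0.02. Rap1b had 61.4 FPKM under anti-CD40 and 42.4 under IgG, a ratio of 1.45 with an interval from 1.37 to 1.53. The adaptor gene Skap2 had 86.2 and 64.2 FPKM. Rasgrp4 and Rasgrp2, exchange factors for Ras-family GTPases, were lower, at 10.9 against 16.6 FPKM and 2.53 against 3.88. Among 23 detected kinases and other signalling genes downstream of integrins, 1 lay above and 4 below, with a list median of -0.01. Pak2 had 10.3 FPKM under anti-CD40 and 6.76 under IgG, whereas its paralog Pak1 had 16.3 and 22.7. Csk, which restrains Src-family kinases, had 65.7 and 89.5 FPKM, and Pik3cd, a leukocyte PI3-kinase, had 22.0 and 16.6.

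**Figure D4:**
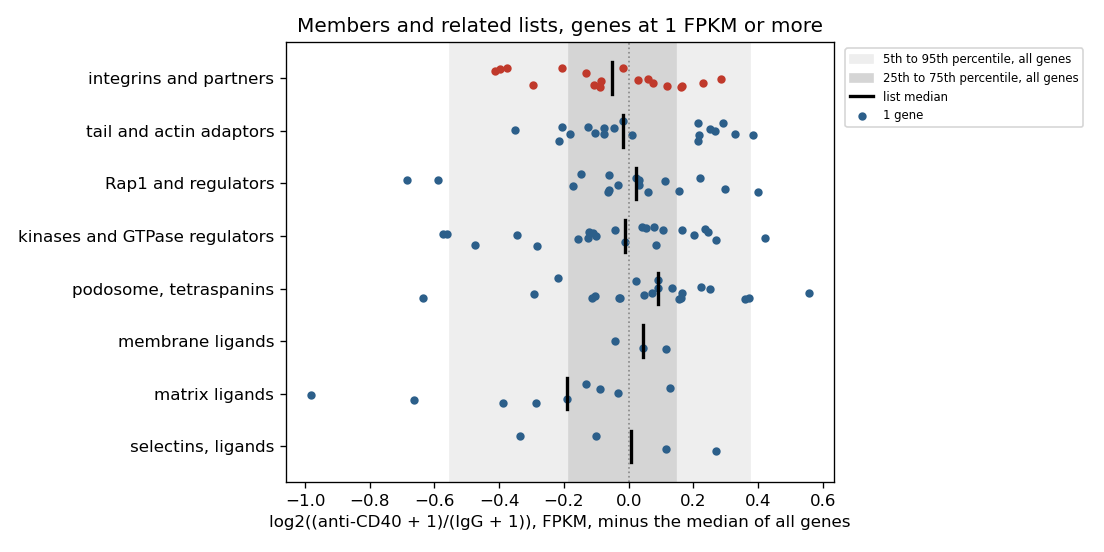
log2((anti-CD40 + 1)/(IgG + 1)) minus the all-gene median, for the 18 members and for genes of 7 related lists at 1 FPKM or more, 1 point per gene. Black bars are list medians and the grey bands hold the middle of all genes; the member median of -0.05 lies inside the inner band.

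Among 21 detected podosome genes and tetraspanins, membrane proteins that associate laterally with integrins, 3 lay above and 1 below, and the list median was 0.09. Tspan14 had 32.5 FPKM under anti-CD40 and 19.9 under IgG and the urokinase receptor gene Plaur 22.7 and 15.8, whereas the tetraspanin genes Cd37 and Cd63 were lower, at 296 against 423 and 2971 against 3340 FPKM. Of other membrane ligands of integrins, 3 of 17 were detected and none passed either limit. Cd47, the thrombospondin receptor that associates with alpha v beta 3, had 20.5 and 17.2 FPKM, Adam15 106 and 100.5, and L1cam 1.72 and 1.42. Vcam1, the ligand of alpha 4 beta 1, was under 1 FPKM.

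Matrix and soluble ligands had the lowest list median, -0.19 over 9 detected of 43 genes. Among those 9, 0 lay above and 3 below, against 7.49% and 13.9% of all genes. Mfge8, a bridge that binds alpha v integrins, had 998 FPKM under anti-CD40 and 1813 under IgG. The fibrinogen chain gene Fgb had 0.490 and 1.17, so it was counted only through the IgG library, where it was higher. Spp1, the gene of osteopontin, an alpha v ligand, went the other way with 370 and 311 FPKM, and Tgfb1, whose latent form is bound by alpha v integrins, had 136 and 128. Of selectins and their ligands, 4 of 8 genes were detected, with a list median of 0.01. Glg1 was the 1 gene past a limit, at 16.8 FPKM under anti-CD40 and 19.7 under IgG. Selplg, the ligand of P-selectin, had 43.9 and 37.2 FPKM, Cd24a 3.51 and 2.44, and Fut7 2.75 and 2.69.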

How the data were processed

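Libraries were made with a TruSeq kit from 1.3 ug of TRIzol-extracted total RNA, per the labels' protocols. HISAT2 2.1.0, StringTie without a version and mm10 are named, per the submitters' processing notes; for the annotation, strand setting and filters the sources used here give nothing. The authors deposited 1 table of values per gene and library, read here as FPKM. The header does not name the unit, which was inferred from StringTie and because the columns sum to different totals, 529104 for anti-CD40 and 547362 for IgG. Of the table's columns of values, 0 were left unused.

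The difference is log2((anti-CD40 + 1)/(IgG + 1)) minus its median over the 9591 genes with at least 1 FPKM in 1 library. Ratios in the text are of FPKM values themselves. With 1 library per group, no test was run; genes were counted at 25% above, 20% below, and 1.5-fold and 2-fold from the median. The calculation was tested on simulated data.

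For depth, FPKM times gene length of single-exon genes was searched for a value shared by several genes whose 0.5-fold value was also shared. Read as a fragment of 300 bases and a read of 150, this gave 20.5 and 18.6 fragments per FPKM and kilobase for anti-CD40 and IgG. Within 0.05 of a step of 0.5 base, 69.8% of 126 and 77.4% of 84 low values came out whole. Absolute depths and interval widths rest on that reading. Fragments per gene used the GENCODE transcript with the longest coding part, found for 97.2% of the genes at 1 FPKM. Coordinates are RefSeq's on GRCm38.p6, the assembly behind mm10, in which all 34714 symbols were found; 23 of 32 members had an entry in the RefSeq promoter table, and bases inside the annotated gene were left out of the windows printed.

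Members and lists were chosen with earlier results of these data known. Every detected member is named; of each pathway list, up to 2 genes with the highest and 2 with the lowest value are named, and markers outside the macrophage and proliferation lists at 5 FPKM or more could be named. Dcstamp, Gp1bb, Vcam1, Csf1r, S100a8 and Cd4 were named after their values were seen. Alternatives were pseudocounts of 0.1 and 5 FPKM, no centring, upper-quartile scaling, scaling to the mean of the sums, a minimum of 5 FPKM, no minimum, and, chosen after seeing the data, removal of trends on transcript length and GC content (lowess span 0.3). Python 3.11.15, scipy 1.17.1 and statsmodels 0.14.6 were used.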

Additional observations from a re-analysis of the deposited data

How the results depend on the processing

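No paired analysis was possible because each group held 1 library. For the same reason no replicate could be left out, and every difference may include the spread between cultures. Under 8 alternatives, 12 of the 18 detected members kept 1 sign. Fermt3, Icam1, Itga4, Itga5, Itga6 and Itgb1 did not, and no counted member changed sign. Icam1 and Itga4 changed sign only under settings without centring, where 0 means equal levels and not the all-gene median. The count of members at least 25% above the all-gene median was 0 as reported. With a pseudocount of 0.1 FPKM it was 2, against 10.99% of all genes. It was also 2 without centring (18.3%) and 2 without a minimum level (8.42%). With scaling to the mean of the sums it was 3, against 23.5% of all genes. Members at least 20% below, 3 as reported, numbered 4 with a pseudocount of 0.1 FPKM, against 17.3% of all genes. With a minimum of 5 FPKM they numbered 2, against 16.3%. That count was 0 without centring, 0 without a minimum level (5.89%) and 0 with scaling to the mean of the sums (6.73%). A pseudocount of 5 FPKM also gave 0 (7.10%). Without centring, 18.3% of all genes passed the upper limit and 8.26% the lower one, and without a minimum the median of all genes lies at that of the low genes, which takes off almost no shift. No member was 1.5-fold from the median under any of the 8 alternatives. The member median relative to all genes ran from -0.09 with a minimum of 5 FPKM, which 12 members reached, to -0.01 with the length and GC trends removed. Under that last setting 0 members passed the upper limit and 2 the lower one, against 8.56% and 11.95% of all genes. Depth limits Icam2 most, at 75 and 88 fragments.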
